A study of Mus musculus with 37 samples.

Results

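Uneducated uterine natural killer (uNK) cells of NKG2A KO mice were compared with those of wild-type (WT) mice, both on the C57BL6 background. Uneducated cells were sorted as Ly49C/I- NKG2A-, that is, lacking the Ly49C and Ly49I receptors as well as NKG2A. The comparison used the 8 KO and 9 WT libraries of this gate, 17 of the 37 bulk RNA-seq libraries, chosen by their titles. The other libraries were WT NKG2A+ cells (9), WT Ly49C/I+ cells (6) and KO Ly49C/I+ cells (5). All cells came from the uterus of pregnant mice at 9.5 to 10.5 days of gestation, gated as live CD45+ NKp46+ cells without CD3, CD4, CD8 or high CD11b, among the markers used for exclusion. In KO mice no cell should carry NKG2A, so the uneducated gate also took cells that NKG2A would have marked in WT mice. The KO Ly49C/I+ gate likewise took cells that would have carried both receptors. The study's list of antibodies names this stain NKG2AC/E, that is, shared with the related receptors NKG2C and NKG2E. Cells carrying those receptors may thus have been kept out of these gates in either genotype, which was not tested. A change of expression within cells and a change in which cells the gate holds cannot be told apart in this design. Nor can fewer cells of a type and less RNA per cell be told apart in bulk RNA. The sources used here do not say how the KO allele was made or whether a library came from 1 mouse or a pool, so p-values measure the spread between these libraries.

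NKG2A, encoded by Klrc1, pairs with CD94 (Klrd1) on NK cells and inhibits them when it binds Qa-1 (H2-T23), a non-classical MHC class I molecule that displays peptides cut from the leader sequences of classical MHC class I. NK cells whose inhibitory receptors engage self MHC are called educated, or licensed, and respond more strongly when activated. Uterine NK cells accumulate in the decidua early in pregnancy, where they release interferon-γ, chemokines and growth factors that act on the uterine arteries.

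Total counts were alike in depth, from 16109604 to 18173312 in WT and from 16582365 to 18875033 in KO libraries. The NK markers were present: Ncr1, which encodes the sorted receptor NKp46, was at 487 to 658 counts per 1e6 counts (CPM) in WT and 601 to 876 in KO libraries, and all 13 genes of the NK marker list passed the filter on low values. Of 21 library measures and marker sums, that of the NK markers included, 0 differed between the genotypes at an adjusted p under 0.05 by exact permutation tests. The smallest was the summed CPM of epithelial markers, 200.2 to 302 in WT and 140 to 266 in KO (p = 0.0242, adjusted p = 0.469, exact permutation test). The T cell marker sum was 551 to 800 in WT and 644 to 830 in KO, with Cd3e at 1.13 to 8.28 and 1.43 to 11.3 CPM. Of its 12 members 6 were tested, and 2 others were at 0 in every KO library. The B cell marker sum was 400.3 to 658 and 364 to 669 CPM, nearly all of it Ighm. Macrophage and monocyte markers summed to 35.8 to 160 and 35.7 to 102 CPM and dendritic cell markers to 305 to 859 and 208 to 839 CPM. WT library 5 had the fewest genes detected (13990) and KO library 4 the most (17006). Both stood at an extreme in many genes. WT library 5 was the lowest WT library in 126 of the 354 genes higher in KO at an unadjusted p under 0.05, and KO library 4 the highest KO library in 123. KO library 6 was the highest KO library in 92 of the 354 and the lowest in 73 of the 265 genes lower in KO (KO library 4 in 69). Over all genes tested, KO library 4 was the highest KO library in 1497, KO library 3 in 1378 and KO library 6 in 1359. The choice to leave out WT library 5 and KO library 4 together was made after seeing the data, and list counts and medians without them are given for most lists.

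Klrc1 was near 0 in both genotypes of the gate, which excludes NKG2A+ cells. It was at 1.25, 3.11 and 13.8 CPM (lowest, median and highest) in WT and 0.766, 2.11 and 3.13 CPM in KO libraries, against 494, 575 and 759 CPM in WT NKG2A+ cells. The KO and WT uneducated libraries overlapped, and the difference of group means was -0.53 on the log2(CPM + 1) scale (p = 0.126, two-sided exact permutation test). Klrc1 (chr6:129666015-129678973, minus strand, GRCm38) therefore showed that NKG2A+ cells were kept out of the WT gate but did not separate the genotypes. In KO libraries its low level cannot show what the gate kept out, since cells that NKG2A would have marked were also taken there. Of the 50-base stretches of its exons, 40.3% also occur in another gene, chiefly Klrc2 and Klrc3. The sources used here do not say how such reads were counted.

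Across the transcriptome, 0 of 9288 genes tested passed an adjusted p of 0.05 in the edgeR quasi-likelihood test (0%), and the smallest adjusted p was 0.507. At an unadjusted p under 0.05 there were 619 genes (6.66%), of which 354 were higher in KO (3.81% of genes tested) and 265 lower (2.85%). The likelihood ratio test and DESeq2 each called 1 gene (0.0108%), Klrb1b. The median log2 difference was -0.01 with a median SE of 0.17, so the 95% interval of a typical gene reached 0.34 on the log2 scale to either side of its estimate. Only 3 genes had every KO library above every WT library (0.0323%), namely Klf6, Ddx28 and Piezo1, the last of which encodes a mechanically gated ion channel and was named for this after its values were seen. In 0 genes was every KO library below every WT library. Because no gene passed, the genes and lists that follow are described by their values, and the counts of list members are at the unadjusted p under 0.05. Each such count is to be read against the 3.81% higher and 2.85% lower over all genes. Those shares hold for the fit of all 17 libraries. The shares over all genes without WT library 5 and KO library 4 are not given here, so list counts without them have no such measure beside them.

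**Figure D1:**
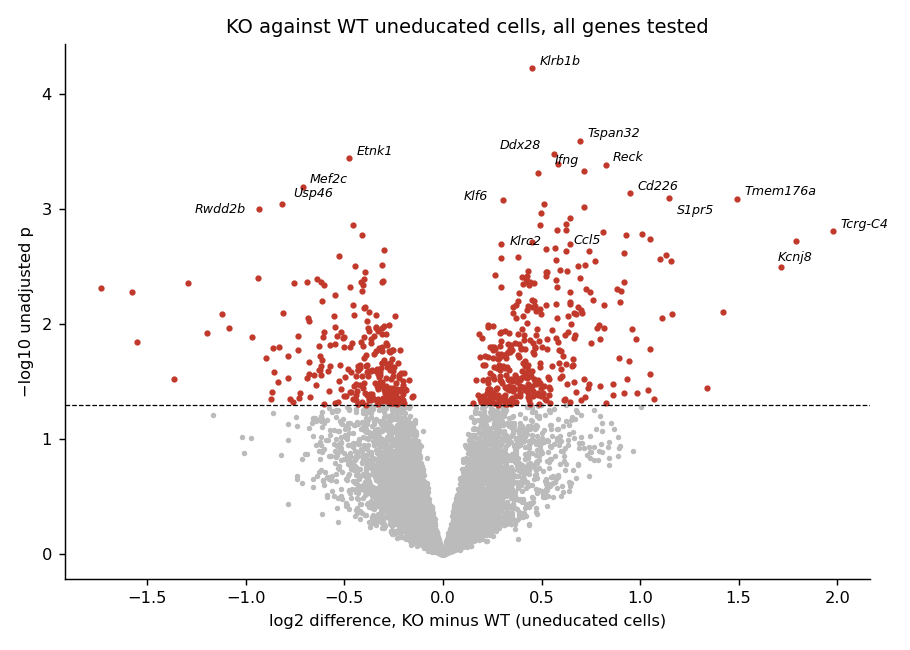
Each point is 1 of the 9288 genes tested in uneducated cells, with the log2 difference between KO and WT libraries on the x axis and the -log10 unadjusted p of the edgeR quasi-likelihood test on the y axis. Red points lie above the dashed line that marks an unadjusted p of 0.05 (619 genes, 354 to the right and 265 to the left), and Klrb1b has the smallest p.

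The smallest p belonged to Klrb1b, which encodes NKR-P1B, an inhibitory receptor of the lectin-like family of the NK gene complex (chr6:128813706-128826331, minus strand, GRCm38). It was at 118, 133 and 166 CPM in WT and 156, 188 and 224 CPM in KO uneducated libraries (lowest, median and highest). All 8 KO libraries were above the WT median and 6 were above every WT library. The log2 difference was 0.45 (SE 0.09, 95% interval 0.26 to 0.64). Its adjusted p was 0.507 in that test, 0.0461 in the likelihood ratio test and 0.0272 in DESeq2. WT NKG2A+ libraries held 284 to 465 CPM, above both uneducated groups. The exons of Klrb1b share 29% of their 50-base stretches with other genes, mainly Klrb1c and Gm44511. Its relatives Klrb1a and Klrb1f had log2 differences of 0.64 (SE 0.17) and 0.38 (SE 0.14). The NKR-P1 and Clec2 list, which holds these receptors, their Clec2 ligands and Cd69, had 4 of 9 tested members higher, 0 lower and a median of 0.25, beside -0.01 over all genes.

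Genes of the partners and relatives of NKG2A had estimates above 0. Klrc2, which encodes NKG2C, the activating counterpart that also pairs with CD94, was at 54.2, 76.1 and 111 CPM in WT and 82.2, 126 and 159 CPM in KO libraries. All 8 KO libraries exceeded the WT median and 5 exceeded every WT library, with a log2 difference of 0.58 (SE 0.16). In WT NKG2A+ cells Klrc2 was at 47.4 to 109 CPM, which overlapped the WT uneducated range. Its exons share 9.42% of their stretches with Klrc3 and Klrc1. The antibody of the NKG2A gate may also have stained NKG2C, and its part in these values was not tested. Klrd1, the CD94 gene, was at 383, 579 and 736 CPM in WT and 451, 610 and 692 CPM in KO, a log2 difference of 0.06 with a 95% interval from -0.21 to 0.33. Klrk1, which encodes NKG2D, had a difference of 0.37 (SE 0.13), and Klrc3 (NKG2E) one of 0.36 (SE 0.22). H2-T23, the gene of the ligand Qa-1, was at 354, 414 and 515 CPM in WT and 472, 515 and 633 CPM in KO, a difference of 0.29 (SE 0.08) with 4 KO libraries above every WT library. In the CD94/NKG2 and Qa-1 list, 3 of 8 tested members were higher, 0 were lower, all 8 estimates were above 0 and the median was 0.33.

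Ly49 receptors, which recognise classical MHC class I, had a median near 0. In this list 2 of 8 tested members were higher (Klra1, 0.32, and Klra9, 0.34), 0 were lower and the median was 0.04. The genes of the receptors used for sorting were Klra3 (Ly49C), with a log2 difference of 0.09 (95% interval -0.29 to 0.48), and Klra9 (Ly49I), with an interval from 0.00 to 0.69. Klra9 was at 50 to 110 CPM in WT and 63 to 123 CPM in KO uneducated libraries, against 462 to 731 CPM in WT Ly49C/I+ cells, and 32.4% of its stretches are shared, mainly with Klra3 and Klra10. Of the other NK receptors 5 of 18 were higher (4 without WT library 5 and KO library 4) and 0 lower, with a median of 0.08. Cd226 encodes DNAM-1, an activating adhesion receptor whose level accompanies education. It was at 7.31, 23.4 and 28.1 CPM in WT and 23.6, 39.2 and 53.1 CPM in KO libraries, with 7 of 8 KO libraries above every WT library (log2 difference 0.95, SE 0.24). WT NKG2A+ cells reached 49 to 174 CPM. Cd160 followed with 0.57, Ncr1 with 0.26 (SE 0.08) and the checkpoint receptor gene Pdcd1 with 0.98. Signalling genes downstream of these receptors had 1 of 24 higher (Dok2, an adaptor that dampens tyrosine kinase signalling, 0.20), 0 lower and a median of 0.10.

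**Figure D2:**
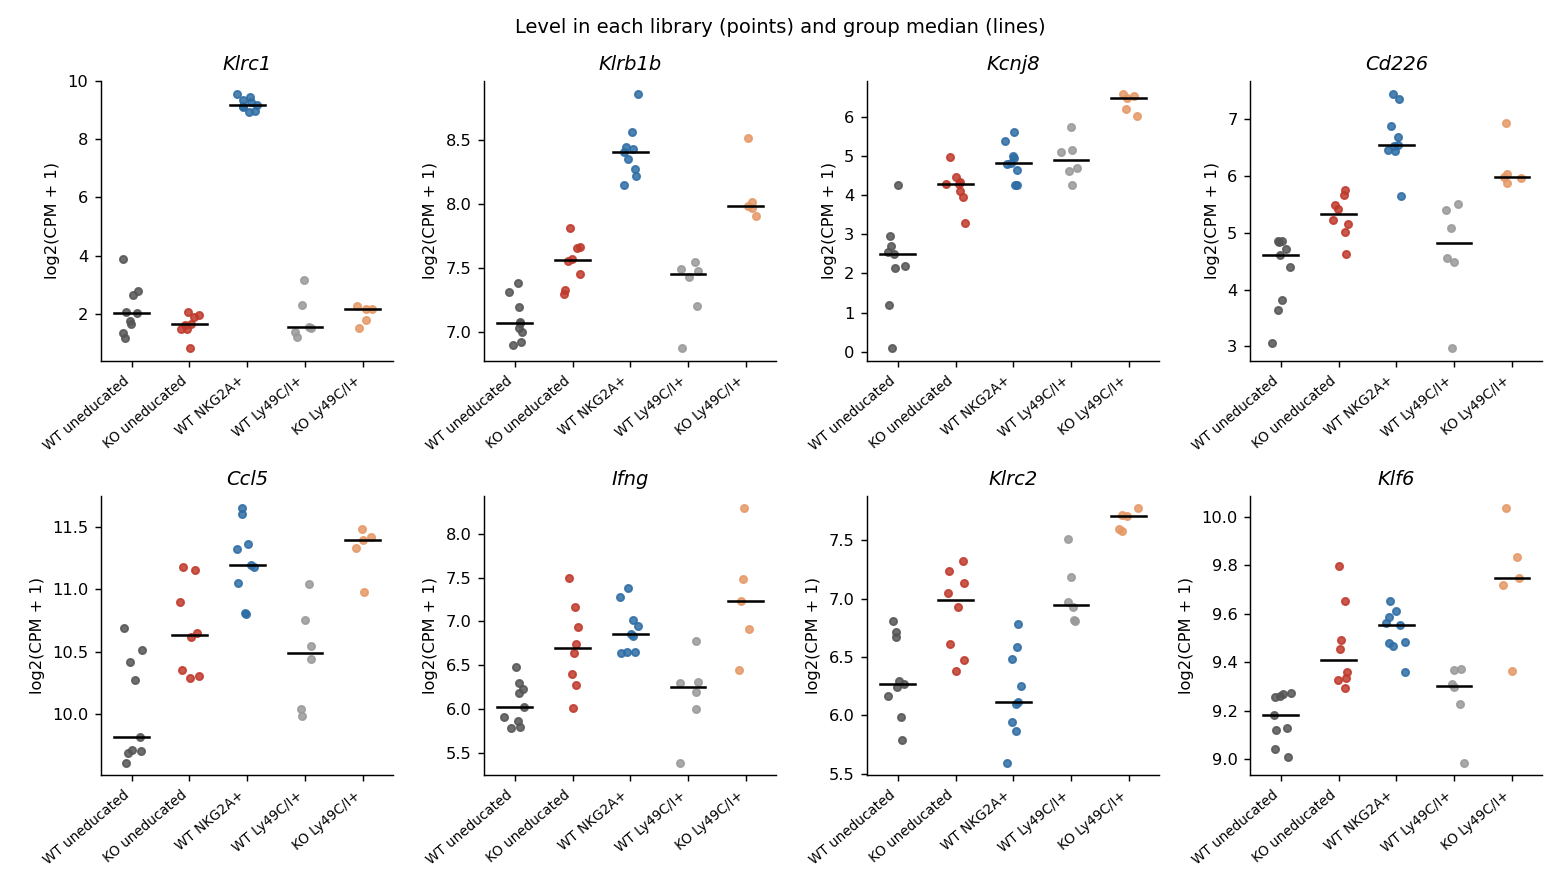
Level of 8 genes in every library, as log2(CPM + 1) on the y axis, with the 5 groups on the x axis, points for libraries and lines for group medians. Klrc1 is high only in WT NKG2A+ cells among these groups, while Klrb1b, Kcnj8, Cd226, Ccl5, Ifng, Klrc2 and Klf6 have higher medians in KO than in WT libraries of both gates.

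Secreted effectors of activated NK cells were among the genes with the smallest p. Ifng, the gene of interferon-γ, was at 53.9, 64.2 and 88.5 CPM in WT and 63.4, 102.5 and 179 CPM in KO libraries. The groups overlapped, with 5 of 8 KO libraries above every WT library (log2 difference 0.71, SE 0.17). An antisense gene, Gm49751, shares 13.5% of its stretches, and strand was not stated for the counting. The chemokine genes Ccl3, Ccl4 and Ccl5, whose products draw in leukocytes, had differences of 0.93 (SE 0.26), 0.71 (SE 0.19) and 0.62 (SE 0.17). Ccl5 was at 780, 900.2 and 1652 CPM in WT and 1252, 1588 and 2311 CPM in KO, so that all KO libraries were above the WT median but only 3 above every WT library. Xcl1, a chemokine gene for dendritic cell recruitment, had 0.31 (95% interval -0.11 to 0.73). The list of cytokines and chemokines had 4 of 14 tested members higher, 0 lower, 13 estimates above 0 and a median of 0.37 (0.29 without WT library 5 and KO library 4). Il15 was below the filter, at 0.326 to 9.13 CPM in WT and 1.36 to 11.6 CPM in KO.

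Granule genes were divided in direction. Of 26 tested, 3 were higher (2 without WT library 5 and KO library 4), 1 was lower (Gzmg, -0.73) and the median was -0.02. Gzma, the gene of granzyme A, was at 974, 1594 and 2223 CPM in WT and 1420, 1957 and 2428 CPM in KO libraries (log2 difference 0.36, SE 0.16). Gzmf, a granzyme gene of uterine NK cells, was at 733, 1583 and 3084 CPM in WT and 634, 1078 and 2574 CPM in KO (-0.44, 95% interval -1.02 to 0.13). Serpinb9b and Serpinb6b, which encode intracellular protease inhibitors, had 0.58 and 0.25. Growth and angiogenic factors had 0 of 6 in either direction and a median of -0.07, with Spp1 (osteopontin) at -0.34 (95% interval -0.71 to 0.03) and Vegfa at -0.23 (-0.49 to 0.04).

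Genes typical of circulating, mature NK cells formed a list with 9 of 18 tested members higher, 0 lower and a median of 0.43, which became 6 and 0.34 without WT library 5 and KO library 4. S1pr5, the sphingosine 1-phosphate receptor gene that lets mature NK cells leave tissues, was at 8.18, 27.4 and 57.7 CPM in WT and 35.9, 55.3 and 114 CPM in KO (log2 difference 1.15, SE 0.29). All 8 KO libraries lay above the WT median and 3 above every WT library. Klf2, a transcription factor gene of resting, recirculating lymphocytes, had 0.73 (SE 0.23), Ly6c2 0.62 (SE 0.18), Cma1 0.57 and Itgam (CD11b) 0.58. The sort took no cells with high CD11b, and Itgam was at 14.1 to 36 CPM in WT and 19.4 to 55 CPM in KO libraries.

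Tissue-resident, ILC1-associated genes were mixed. Of 20 tested, 5 were higher, 1 was lower and the median was 0.09. Tmem176a, a membrane protein gene of innate lymphoid cells, was at 0.519, 4.9 and 10.4 CPM in WT and 7.84, 11 and 28.3 CPM in KO (log2 difference 1.49, SE 0.38). Tcrg-C4, a T cell receptor gamma constant gene, had 1.98 (SE 0.55), the chemokine receptor gene Cxcr6 1.16 (SE 0.40) and Rora 0.98 (SE 0.36). In WT NKG2A+ cells Tcrg-C4 reached 28.2 to 119 CPM, above the 0.0543 to 9.66 CPM of WT and the 7.03 to 44.9 CPM of KO uneducated libraries. Of the 6 T cell markers tested, 2 were higher (Cd3d, 0.66, and Cd3g, 0.54) and 0 lower, with Trbc2 at 0.21, Cd28 at 0.12, Trbc1 at -0.04 and Trac at -0.33 and a median of 0.16. Their part in the Tcrg-C4 result was not tested. Itga1, the CD49a integrin gene that marks resident cells, ran the other way, at 189, 215 and 276 CPM in WT and 135, 175 and 215 CPM in KO (-0.27, SE 0.10). Without WT library 5 and KO library 4 the count of higher members was 3 of this list. Integrin and trafficking genes had 8 of 24 higher and 2 lower (Itga1 and Itgav), with a median of 0.21, and 4 higher and 1 lower without those 2 libraries. Transcription factors of the NK lineage had 3 of 25 higher (1 without those 2 libraries), 0 lower and a median of 0.05. Eomes, a member of that list, had a log2 difference of -0.03 (95% interval -0.21 to 0.16).

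Kcnj8 encodes Kir6.1, the pore of an ATP-sensitive potassium channel. It was at 0.0671, 4.59 and 18.1 CPM in WT and 8.81, 18.4 and 30.5 CPM in KO uneducated libraries. All 8 KO libraries were above the WT median, and 5 above every WT library, including WT library 9, whose 18.1 CPM stood far above the next WT library. The log2 difference was 1.79 (SE 0.50, 95% interval 0.74 to 2.84). WT NKG2A+ libraries were at 18.1 to 47.5 CPM. Kcnj8 lies on chromosome 6 (chr6:142564837-142571614, minus strand, GRCm38), 12.9 Mb from Klrc1. Of the 6 ion channel genes tested, Kcnj8 alone was higher and 0 were lower. Of the 8 tested uNK genes that the study names, a list chosen by the study on these samples and so no independent evidence, 5 were higher (4 without WT library 5 and KO library 4) and 0 lower, with a median of 0.49.

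**Figure D3:**
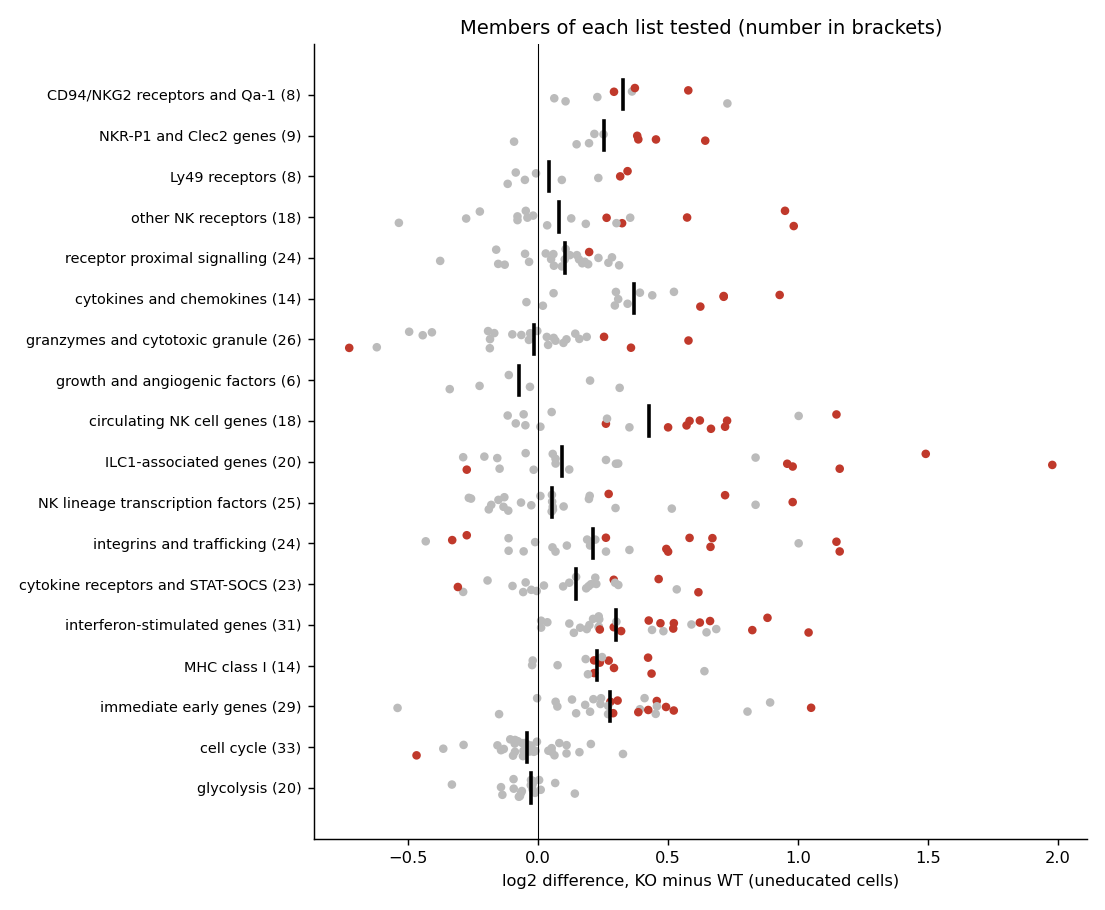
Log2 difference between KO and WT uneducated libraries (x axis) for each tested member of 18 lists (y axis), with black bars for list medians and red points for members at an unadjusted p under 0.05. All 31 interferon-stimulated genes tested lie to the right of 0, and the medians of cell cycle, glycolysis and granule genes lie near 0.

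Interferon-stimulated genes had estimates of one sign throughout. Interferons act through STAT proteins, type I interferons together with IRF9, to switch on antiviral genes, many of which carry an interferon-stimulated response element (ISRE) just before their start. All 31 members tested had estimates above 0, beside 47.7% of all genes. At the unadjusted p under 0.05, 12 were higher and 0 lower, and the median was 0.30. Without WT library 5 and KO library 4 these became 30 estimates above 0, 12 higher and a median of 0.27. Members of the list are not independent of each other. Their mean log2(CPM + 1) was 5.26, 5.64 and 6.07 in WT libraries (lowest, median and highest). It was 5.63, 6.06 and 6.28 in KO libraries, so the groups overlapped. Irf7, the interferon amplifying transcription factor gene, was at 79.5, 114 and 173 CPM in WT and 104, 191 and 242 CPM in KO, with 6 of 8 KO libraries above every WT library (log2 difference 0.62, SE 0.17). Irf9 was at 37.3, 68.1 and 88.8 CPM in WT and 72.8, 96.4 and 124 CPM in KO, with 7 of 8 KO libraries above every WT library (0.52, SE 0.16). Isg15, the ubiquitin-like modifier, was at 11.7 to 28.9 CPM in WT and 21.3 to 38.3 CPM in KO (0.52, SE 0.17). The guanosine triphosphatase gene Igtp had 0.47 (SE 0.16), Ifi44 0.88, Irf1 0.43 and Ifit3 1.04. Some lists share members, since Tap1 also stands in the MHC class I list.

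The 250 bases before the gene starts were read from RefSeq promoter sequences (GRCm38.p6) and searched for GAAANNGAAA on either strand, the letters of the ISRE core. Of the 31 genes tested, 26 matched a promoter and 14 of these held the motif (53.8%). It stood before 256 of the 7400 tested genes that matched (3.46%), and before 936 of 27025 genes in the whole table (3.46%). Of the other 273 matched genes higher at the unadjusted p under 0.05, 18 held it (6.59%). A match is a description of letters and not a site in use. The list holds genes known to respond to interferon, so its share reflects that choice and is no result of the KO comparison. Among the 14 genes with the motif, the unadjusted p ran from 0.0067 (Isg15) to 0.88 (Gbp7) in the edgeR quasi-likelihood test. Below are 3 of these promoters, shown because their genes had the smallest p among listed genes with the motif. Capitals mark the motif (which reads TTTCNNTTTC on the other strand, and overlapping copies run together), and each runs 5′ to 3′ in the direction of its gene, at chr4:156200819-156201068 (minus strand) for Isg15, chr11:58199306-58199555 (plus strand) for Igtp and chr7:104465194-104465443 (minus strand) for Trim30a.
Isg15: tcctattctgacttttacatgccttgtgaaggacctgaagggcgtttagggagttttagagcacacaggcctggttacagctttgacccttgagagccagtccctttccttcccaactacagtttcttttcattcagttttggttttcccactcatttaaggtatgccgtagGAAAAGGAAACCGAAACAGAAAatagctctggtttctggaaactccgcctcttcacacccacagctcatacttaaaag
Igtp: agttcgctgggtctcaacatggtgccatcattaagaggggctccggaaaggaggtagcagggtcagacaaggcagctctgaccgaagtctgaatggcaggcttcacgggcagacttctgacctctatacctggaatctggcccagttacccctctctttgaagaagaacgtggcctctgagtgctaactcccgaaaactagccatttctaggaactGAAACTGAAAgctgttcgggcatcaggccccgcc
Trim30a: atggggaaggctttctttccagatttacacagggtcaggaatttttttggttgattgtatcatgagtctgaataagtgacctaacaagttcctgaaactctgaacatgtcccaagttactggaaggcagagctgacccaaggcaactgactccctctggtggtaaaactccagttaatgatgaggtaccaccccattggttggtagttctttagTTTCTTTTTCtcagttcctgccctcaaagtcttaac
The Isg15 promoter holds 3 overlapping copies, of which the nearest ends 57 bases before the start, while Igtp and Trim30a hold 1 each, 25 and 27 bases before it. Trim30a, a tripartite motif gene induced by interferon, was at 61.6 to 113 CPM in WT and 78 to 115 CPM in KO libraries (0.32, SE 0.13), and Igtp at 34.6 to 80.1 and 58.2 to 109 CPM.

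MHC class I genes, which interferons raise, had 7 of 14 tested members higher, 0 lower and a median of 0.23 (5 higher and a median of 0.17 without WT library 5 and KO library 4). H2-D1, a classical class I gene, was at 5114, 6260 and 7631 CPM in WT and 6449, 7240 and 8756 CPM in KO (0.22, SE 0.09). H2-K1 had 0.22 (SE 0.10), Tap1, a subunit of the peptide transporter, 0.24, and the Qa-2 genes H2-Q7 and H2-Q6 0.42 and 0.44. H2-Q7 shares 28.5% of its stretches with other genes, mainly H2-Q10 and H2-Q5, so its reads could be split between copies. B2m, the light chain of all class I molecules, had -0.02.

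Immediate early genes, which respond within minutes to receptor signals and also to cell handling, had 9 of 29 tested members higher, 0 lower, 26 estimates above 0 and a median of 0.28. Klf6, a zinc finger transcription factor gene, was at 514, 581 and 617 CPM in WT and 627, 678 and 887 CPM in KO, without overlap (log2 difference 0.31, SE 0.08). Dusp1, a phosphatase gene that switches off MAP kinases, had 0.52 (SE 0.16), Ier5 0.49, the heat shock gene Dnajb1 0.42 (SE 0.15) and Cd69, an early activation marker, 0.39 (SE 0.15). The part of cell handling in these values was not tested. Without WT library 5 and KO library 4 the count was 10 and the median 0.27.

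Other named genes with the smallest p have varied roles. Tspan32, a tetraspanin gene of blood cells, was at 18.9, 28.4 and 47.7 CPM in WT and 41.2, 49 and 59.2 CPM in KO (0.70, SE 0.16). Ms4a6b was at 52.7 to 90.3 and 80.2 to 151 CPM (0.59, SE 0.14), and Reck, a membrane-anchored inhibitor of metalloproteinases, at 7.89 to 18 and 17.4 to 29.8 CPM (0.82, SE 0.20). Ddx28, a helicase gene, had KO libraries at 39.9 to 59.5 CPM and WT libraries at 22.4 to 36.9 CPM, without overlap (0.56, SE 0.13). Daxx, a histone chaperone gene, had 0.48 (SE 0.12).

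Among the lists, none had more than 2 members lower in KO at the unadjusted p under 0.05. Mef2c, a transcription factor gene of the MADS box family, was at 49.6, 85.8 and 129 CPM in WT and 36.3, 53.1 and 68.9 CPM in KO libraries, so every KO library was below the WT median (log2 difference -0.71, SE 0.18). Etnk1, an ethanolamine kinase gene, was at 87.1, 102.5 and 135 CPM in WT and 61.5, 76.7 and 93.8 CPM in KO (-0.48, SE 0.11). Each of the other 8 also had 0 KO libraries above the WT median. They were Rwdd2b (-0.93), the deubiquitinase gene Usp46 (-0.81), the ubiquitin ligase gene Huwe1 (-0.53), the importin gene Ipo9 (-0.46), the chromatin remodeller subunit Smarcc1 (-0.44), the clathrin adaptor subunit Ap2b1 (-0.41), Zfr (-0.31) and Mpp6 (-0.30). Cell cycle genes had 0 of 33 higher and 1 lower (Mki67, -0.47; 0 without WT library 5 and KO library 4), with a median of -0.04, and glycolysis genes 0 of 20 in either direction and a median of -0.03. Cytokine receptor and STAT genes had 3 of 23 higher, 1 lower (Tgfbr2, the TGF-β receptor gene, -0.31) and a median of 0.15, and 0 higher without WT library 5 and KO library 4.

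Because Klrc1 lies in the NK gene complex on chromosome 6, genes near it were listed by distance from its start. Within 5 Mb there were 74 genes tested, of which 12 were higher (16.2%) and 0 lower, with 47 estimates above 0 and a median of 0.07. Without WT library 5 and KO library 4, 9 of 73 were higher and 0 lower, with a median of 0.08. Within 1 Mb 7 of 30 were higher (23.3%, median 0.17), and from 2 to 5 Mb away 4 of 35 (11.4%, median 0.02). The 12 were Klrb1a, Klrb1b, Klrb1f, Cd69, Klrk1, Klrc2, Klra9, Klra1, Cd9 (0.38), Tnfrsf1a (0.44), Tapbpl (0.27) and Cracr2a (0.52). Most encode NK receptors, so position and function cannot be told apart here, and whether the interval carries the DNA of another strain was not tested. Of 11 listed substrain genes, which differ between C57BL/6 colonies, only 4 passed the filter and were tested, and none of these was higher or lower. Whether the mice differed in substrain was not tested.

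**Figure D4:**
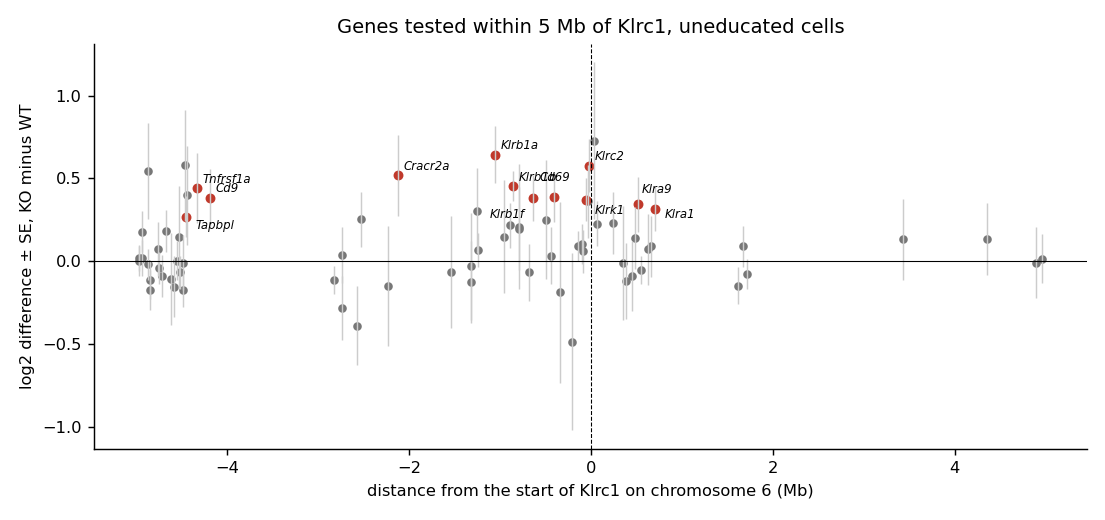
Log2 difference between KO and WT uneducated libraries (y axis, with SE bars) of the 74 genes tested within 5 Mb of Klrc1, against distance from its start in Mb (x axis). Red points are the 12 genes at an unadjusted p under 0.05, all above 0.

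The same genotypes were compared in Ly49C/I+ cells, with 5 KO and 6 WT libraries that the uneducated comparison does not use, although mice may be the same. Here 0 of 9344 genes passed (0%) in the edgeR quasi-likelihood test, 992 were at an unadjusted p under 0.05 (10.6%; 5.37% higher and 5.24% lower), and the likelihood ratio test called 60 and DESeq2 118. Without WT Ly49C/I+ library 1 the quasi-likelihood test called 15 genes, and without KO Ly49C/I+ library 8 it called 2. Of the 352 genes higher in uneducated KO cells among 9078 tested in both gates, 108 were also higher in Ly49C/I+ KO cells (30.7%, beside 5.42% of all genes), and 3 were lower. These 108 were 22% of the 492 genes higher in Ly49C/I+ cells, beside the 3.81% of all genes higher in uneducated cells. Of the 254 genes lower in uneducated KO cells, 39 were also lower in Ly49C/I+ KO cells (15.4%, beside 5.35% of all genes). These 39 were 8.02% of the 486 genes lower in Ly49C/I+ cells, beside the 2.85% of all genes lower in uneducated cells. Across genes, which are not independent, the 2 sets of differences correlated at r = 0.30. Same-numbered WT libraries of the 2 gates correlated between 0.08 and 0.20 in their deviations from the group mean. The median of other WT pairs was -0.02. For KO libraries these values were 0.02 to 0.24 and -0.004. Whether such libraries came from the same mice was not tested, so the 2 comparisons are not taken as independent. Klrb1b had 0.74 in Ly49C/I+ cells, Cd226 1.38, Ifng 1.19 and Klrc2 0.61. Interferon-stimulated genes had 13 of 33 higher, 0 lower and a median of 0.40, and immediate early genes 13 of 28 higher, 0 lower and a median of 0.32. Zfr had 0.35 there, against -0.31 in uneducated cells. The test of whether the genotype difference itself differed between the gates called 0 of 9322 genes (0%, with 407, or 4.37%, at an unadjusted p under 0.05), while the likelihood ratio test and DESeq2 each called 1, Elmod2 (-2.26, adjusted p = 0.498 in the edgeR quasi-likelihood test).

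A limma-voom fit over both gates, chosen after these values were seen, tested the mean of the 2 genotype differences with libraries of 1 genotype and number as a block. The numbers of 4 WT Ly49C/I+ libraries differ between the labels (3 to 6 in the titles, and 4, 5, 7 and 8 in the descriptions, which were used), and the block rests on that choice; without the block 86 genes were called. The fit with the block called 36 of 9322 genes (0.386%), of which 35 rose in KO (0.375%) and 1, Mef2c, fell (0.0107%). This fit holds the 17 uneducated libraries and adds 11, so it is no independent test of them. Klrb1b rose by 0.59 (adjusted p = 0.000483, limma-voom), Kcnj8 by 1.92, S1pr5 by 1.36, Cd226 by 1.26 and Ccl3 by 1.11, and Mef2c changed by -0.84. For Kcnj8 and S1pr5 these values exceed the edgeR estimates of both gates. Those were 1.79 in uneducated and 1.39 in Ly49C/I+ cells for Kcnj8, and 1.15 and 1.30 for S1pr5. The reason was not tested. The receptor genes Klrc2, Klrb1a, Klra9, Cd69 and Ncr1 rose, as did H2-T23, the chemokine genes Ccl4 and Ccl5, Ifng, Klf6, Ly6c2, Plek, Fgl2 and Rgcc. Interferon-inducible genes of the Ifi200 family (Ifi203, Ifi208 and Ifi209) and Tgtp2 also rose, although 26% of the stretches of Ifi208, 35.1% of Ifi209 and 90.6% of Tgtp2 are shared with related genes. All 36 estimates had the same sign in both gates, and 34 were at an unadjusted p under 0.05 in the uneducated cells alone. The 36 genes were chosen on the mean of both differences in these libraries. Their shared sign and small p follow in part from that choice and are no separate evidence. Leaving out each of the 28 libraries in turn, 19 genes were called every time, among them Klrb1b, Kcnj8, Klf6, S1pr5, Ms4a6b, Cd226, Ccl3, Ccl4, Ccl5, Klrc2, Cd69, H2-T23, Tspan32 and Mef2c. The number called ran from 19 without WT Ly49C/I+ library 2 to 63 without KO Ly49C/I+ library 8, and was 41 without WT uneducated library 5 and KO uneducated library 4. It was also 23 without KO Ly49C/I+ library 4, 58 without KO uneducated library 1 and 60 without WT Ly49C/I+ library 1 or WT uneducated library 6.

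**Figure D5:**
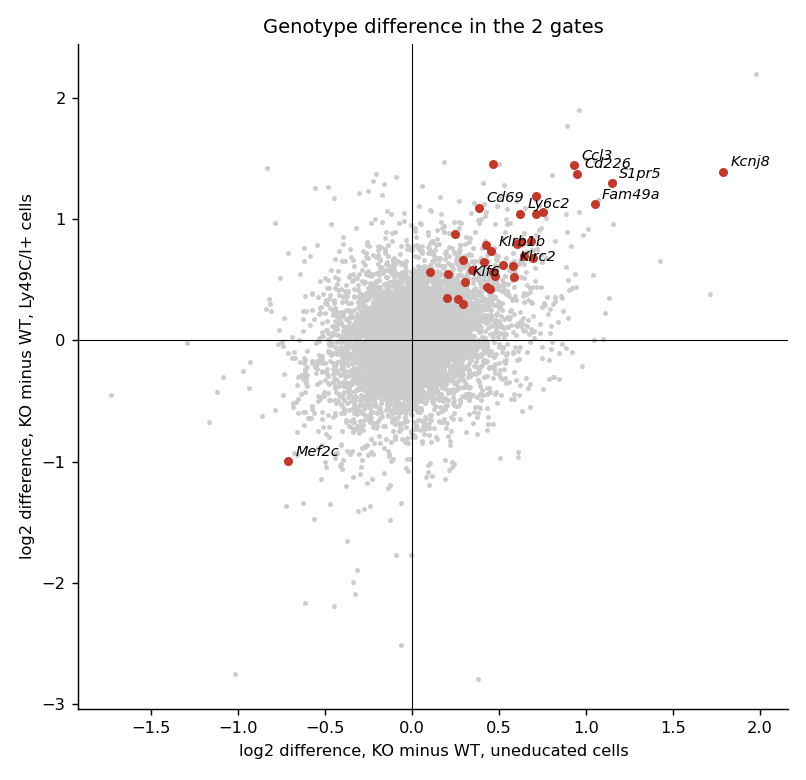
Log2 difference between KO and WT in uneducated cells (x axis) against that in Ly49C/I+ cells (y axis), 1 point per gene tested. The 36 red points are the genes called over both gates; 35 lie in the upper right quadrant, and Mef2c lies in the lower left.

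WT NKG2A+ cells, which have no gate of their own in KO mice, give the levels of the WT counterparts of the cells that the KO gate also took. Tests of these cells share libraries with the comparison above, so values are set side by side and no overlap is drawn from them. Against WT uneducated cells, WT NKG2A+ cells differed in 1404 of 9339 genes (15%), and against KO uneducated cells in 829 of 9290 (8.92%), in the edgeR quasi-likelihood test. For Klrb1b the NKG2A+ cells were 1.33 above WT and 0.88 above KO uneducated cells on the log2 scale, for Cd226 2.39 and 1.44, for Ms4a6b 1.24 and 0.65, and for Tcrg-C4 3.65 and 1.67. For Ifng they were 0.87 above WT and 0.16 above KO, and for Klf6 0.36 and 0.06. Klrc2 was 0.70 higher in KO uneducated than in WT NKG2A+ cells, and the difference of WT NKG2A+ from WT uneducated cells was -0.12.

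A list of genes that differ between WT NKG2A+ and WT Ly49C/I+ cells uses no library of the uneducated comparison, although mice may be the same. It held 254 of 9308 genes (2.73%), 122 higher (1.31%) and 132 lower (1.42%) in NKG2A+ cells, and was added after the data were seen. Of its 121 tested genes higher in NKG2A+ cells, 37 were higher in KO uneducated cells (30.6%, beside 3.81% of all genes) and 0 lower, with a median of 0.12. Without WT library 5 and KO library 4 the count was 28 and the median 0.12. With the list called by the likelihood ratio test, 46 of 223 were higher (20.6%) and 4 lower, with a median of 0.07, and with that of DESeq2 50 of 295 (16.9%) and 5 lower, with a median of 0.04. Of the 131 tested genes of the quasi-likelihood list that were lower in NKG2A+ cells, 6 were higher (4.58%) and 11 lower (8.4%), with a median of -0.04. A score was the mean log2(CPM + 1) of the higher genes minus that of the lower genes, over all 254 genes with Klrc1 included. It was not centred, so only differences between groups have meaning and not its sign. The score was -0.52, -0.23 and 0.07 in WT uneducated libraries (lowest, median and highest) and -0.08, 0.10 and 0.25 in KO uneducated libraries. In WT NKG2A+ libraries it was 0.56, 0.74 and 0.99. The KO and WT uneducated libraries overlapped. The WT NKG2A+ and WT Ly49C/I+ libraries chose the genes, so their places at either end are fixed by that choice. WT Ly49C/I+ libraries were at -1.14, -0.72 and -0.25 and KO Ly49C/I+ libraries at -0.41, -0.11 and 0.20.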

How the data were processed

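Bulk RNA-seq was made from sorted uNK cells with SMART-Seq v4 and Nextera XT. Per the labels and the study's methods, the authors trimmed reads with Trim Galore 0.5.0, aligned them with STAR 2.7.1 to GRCm38 and deposited raw read counts per Ensembl gene. The sources used here do not give the counting program or strand setting, and reads carry no molecular identifiers. Groups came from library titles and descriptions. Replicate numbers of WT Ly49C/I+ libraries came from the descriptions, and that of WT uneducated library 5 from its title, since its description repeats that of library 4. Summary lines that name no gene were left out of library sizes (reads assigned to no feature were 2.69% to 5.67% of reads in the uneducated libraries). The filter kept genes that reached 5 CPM in a share of 0.5 or more of the compared libraries. The main test was the quasi-likelihood test of edgeR 4.0.16 (TMM scaling, R 4.3.3), Benjamini-Hochberg adjusted over all genes tested; the joint fit used limma 3.58.1. Alternatives were DESeq2 1.42.0, the likelihood ratio test, other scaling and filters, GC and length correction in place of the authors' CQN, a replicate block and leaving out libraries. Scripts were tested on simulated data. Members and gene lists were chosen with earlier results of these data known. Named genes were those of smallest p in each direction (10 each), list members of smallest p, genes near Klrc1, genes the study names and receptors of the sort. CPM are TMM-scaled.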

Additional observations from a re-analysis of the deposited data

Results flagged for a closer look

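Among 130 groups of libraries tested with Dixon's criterion for a sample far from the others (58 named genes and 7 library measures, KO and WT uneducated libraries separately), 12 stood out. Chance alone flags about 1 in 20 groups.

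Of the genes, Kcnj8 had 18.05 CPM in WT library 9 against 6.79 in the next WT library, and Klrc1 13.8 CPM in WT library 1 against 5.89. WT library 5 had the highest WT value of Huwe1 (132 CPM, next 89.8) and the lowest of Kpna4 (66.7 CPM, next 85.5). KO library 4 had the highest KO values of Tmem176a (28.3 CPM, next 17.1) and Galnt10 (57.3 CPM, next 35.2), and KO library 6 that of Tgtp2 (20.5 CPM, next 13.3).

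Of the library measures, KO library 1 had the highest total count (18875033). WT library 5 had the fewest genes detected (13990, next 15572) and the highest share of mitochondrial counts (1.12%, next 0.388%). KO library 4 had the most genes detected (17006, next 16232) and the highest share of reads assigned to no gene (5.67%, next 4.08%).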

How the results depend on the processing

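The 0 genes called between KO and WT uneducated libraries stayed 0 with other scaling, with no filter or another filter on counts, with GC and length correction, with all 5 groups in the fit, without WT library 5 and KO library 4, and in all 17 fits that left out 1 library (0 to 0). DESeq2 and the likelihood ratio test each called 1, Klrb1b. Same-numbered KO and WT uneducated libraries correlated between -0.23 and 0.27, with 2 of 8 pairs above 0.1 and a median of 0.01 for other pairs. These values do not show that the numbers pair the libraries, and they cannot exclude it. A fit with the replicate block called 0 genes (792 at an unadjusted p under 0.05). Between Ly49C/I+ libraries, 0 calls became 60 with the likelihood ratio test, 118 with DESeq2 and 0 to 15 when 1 library was left out, and 0 with the replicate block. The interaction, at 0, became 1 with either other tool. The 829 genes between KO uneducated and WT NKG2A+ cells became 544 with no filter on low counts, and 729 with the replicate block. The 1404 genes between WT NKG2A+ and WT uneducated cells became 1687 without WT library 5. The list between WT NKG2A+ and WT Ly49C/I+ cells grew from 254 to 558 with DESeq2 and 442 with the likelihood ratio test. The 36 genes over both gates became 86 in voom with no replicate block, 61 in the edgeR quasi-likelihood test with no replicate block and 19 to 63 when 1 library was left out. The causes were not tested. Of 1512 refitted gene estimates in uneducated cells, 1509 kept direction and side of the threshold; 2 gained it (Klrb1b with the 2 other tools), and Klra3, at 0.09, ran from -0.0018 to 0.19 when 1 library was left out, the reversal being without WT library 5. Over both gates 974 of 1116 kept their call and 142 lost it. Reads carry no molecular identifiers, so counting error is a lower bound on the error of a library.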
